A study of Mus musculus with 8 samples.

Results

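The DNA replication and G1/S genes are 42 genes chosen by name, which encode the proteins that license replication origins, copy DNA, supply nucleotides, rebuild chromatin behind the fork and commit a cell to S phase. All 42 were found by symbol among the 54532 genes of the deposited count table, and 41 of them had enough counts to enter the test of 17138 genes. Whole lungs of 8 mice were profiled by RNA-seq, 4 labelled Control and 4 given TTI-101, an inhibitor of the transcription factor STAT3, over the 4 weeks before collection at 14 weeks of age. Every mouse in both groups had the CC-LR genotype on a C57BL/6 background, in which Cre recombinase at the club cell secretory protein (CCSP) locus switches on a mutant K-ras allele in lung epithelium and tumors form spontaneously. The mutant allele is therefore active in part of the epithelium, while the RNA came from all cells of the lung. The sources used here do not state which of the study's dosing routes the sequenced mice received, or the sex of each mouse. Whether the sequenced Control mice received vehicle is not stated either, and a figure legend of the paper calls control mice untreated. If they received none, the drug cannot be told apart from its vehicle and handling. Each mouse gave 1 library.

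Before S phase, the origin recognition complex, Cdc6 and Cdt1 load the MCM helicase onto origins. Cyclin E and its kinase, together with Cdc45 and the GINS complex, then turn the loaded helicase on, and polymerases, the sliding clamp Pcna and its loader copy the strands. Many of these genes are known targets of E2F transcription factors, which the retinoblastoma protein holds back until a cell enters the cycle, so their transcripts are commonly read as a sign of S phase. Most cells of an adult lung are out of the cycle.

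Promoter sequences were searched for words of the E2F type. RefSeq promoters on GRCm38.p6, running from 250 bases before each start to 50 after it, were at hand for 34 of the 42 genes. Of these, 13 genes (38.2%) held at least 1 of the E2F-type words TTTCGCGC, TTTGGCGC, TTTCCCGC or TTTGCCGC on either strand, against 704 of 27025 genes (2.6%) in the whole table. The words can overlap each other on opposite strands. The box CCAAT, searched on both strands as well, was present in 22 of the 34 genes (64.7%) and in 41.1% of all genes. The 13 genes were Cdc6, Cdt1, Gins3, Lig1, Mcm3, Mcm5, Mcm6, Mcm7, Orc1, Pola1, Pold1, Rfc3 and Uhrf1, and the 8 genes with no entry in the table were Gins4, Pole, Rfc2, Gins2, Ccne2, Gins1, Mcm4 and Prim2. These 4 promoters are shown because they hold the overlapping words of the helicase genes and the single words of the licensing gene Cdc6 and of Uhrf1, whose expression is described below, with E2F-type words in capitals.
Mcm5, chr8:75109259-75109558, plus strand: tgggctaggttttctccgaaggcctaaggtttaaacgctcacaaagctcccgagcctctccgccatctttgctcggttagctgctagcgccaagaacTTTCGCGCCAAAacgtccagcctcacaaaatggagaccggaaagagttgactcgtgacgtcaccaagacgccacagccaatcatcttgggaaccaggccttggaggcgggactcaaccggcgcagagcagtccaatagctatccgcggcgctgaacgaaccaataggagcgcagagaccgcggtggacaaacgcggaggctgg
Mcm6, chr1:128359656-128359955, minus strand: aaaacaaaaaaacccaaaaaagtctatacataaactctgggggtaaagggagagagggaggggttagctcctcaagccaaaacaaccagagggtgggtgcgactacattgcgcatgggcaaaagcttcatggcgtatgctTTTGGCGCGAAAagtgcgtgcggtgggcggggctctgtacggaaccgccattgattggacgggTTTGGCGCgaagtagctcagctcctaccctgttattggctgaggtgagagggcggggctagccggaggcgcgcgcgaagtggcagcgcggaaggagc
Cdc6, chr11:98907901-98908200, plus strand: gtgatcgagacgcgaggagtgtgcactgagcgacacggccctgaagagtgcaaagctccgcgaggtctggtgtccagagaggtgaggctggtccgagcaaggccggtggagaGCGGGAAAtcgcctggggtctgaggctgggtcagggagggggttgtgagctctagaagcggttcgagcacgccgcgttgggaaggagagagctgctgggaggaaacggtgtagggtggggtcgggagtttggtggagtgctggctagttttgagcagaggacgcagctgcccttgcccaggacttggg
Uhrf1, the second of its starts, chr17:56304063-56304362, plus strand: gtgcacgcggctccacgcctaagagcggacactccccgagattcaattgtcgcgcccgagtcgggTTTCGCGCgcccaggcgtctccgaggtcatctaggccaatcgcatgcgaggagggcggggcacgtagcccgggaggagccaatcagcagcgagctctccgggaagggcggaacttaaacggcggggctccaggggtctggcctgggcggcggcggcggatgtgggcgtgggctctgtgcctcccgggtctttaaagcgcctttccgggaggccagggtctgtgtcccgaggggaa
In Mcm5, 2 words on opposite strands shared bases, with first positions of -153 and -149 from the start. Mcm6 had a similar pair at -110 and -106 and another word at -47. Cdc6 had its word at -138 on the strand opposite to the gene, and Uhrf1 at -185. A match is a run of letters and not evidence of binding in these lungs. Positions are counted from RefSeq starts, which can differ from the gene starts deposited with the counts. Some windows lay wholly inside the deposited gene, among them those of Cdc6 and E2f1 and the one shown for Uhrf1. A window inside the gene can miss the sequence before the deposited start, so its lack of a word does not show that the promoter lacks one.

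Expression is given as CPM, the counts of a gene scaled to a common library size with TMM, a normalization that assumes most genes are alike between libraries. Total counts per library ran from 16075855 to 26873509 and the TMM factors from 0.924 to 1.025. The library of Control 4 stood apart, at 101 on the first principal component of log2 CPM against at most 17.9 in the other mice, and its mitochondrial genes held 5.56% of counts against 2.01% to 2.85%. For part of the genes the value without this mouse is given beside the result. In bulk lung RNA, fewer cells of a type and less RNA per cell cannot be told apart.

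For these genes the comparison asks whether the S phase transcripts of the lung differed between TTI-101 and Control mice. None of the 41 genes tested passed an adjusted p of 0.05 in edgeR's quasi-likelihood test, where 0% of all genes tested did. At an unadjusted p under 0.05, 0 of the 41 were lower, against 3.58% of all genes tested, and 0 were higher, against 3.02%, or 6.61% in either direction. DESeq2 and limma-voom also gave 0 genes at an unadjusted p under 0.05 in either direction. The adjusted p-values from edgeR ran from 0.657 to 0.996, and the lowest unadjusted one was 0.0612, for Tyms. Leaving out mice in turn, 1 gene passed the unadjusted threshold in edgeR in each of 3 cases and 0 in the other 5. That gene was Chaf1a without Control 1 (edgeR unadjusted p = 0.0297) and Pola1 without Control 3 (edgeR unadjusted p = 0.0459). Without TTI-101 3 it was Rrm2 (edgeR unadjusted p = 0.0317), and each was lower in TTI-101 lungs. The share of all genes that passed in these fits is not given here, so these genes were not set against a background.

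The median log2 fold change of TTI-101 over Control was -0.10 over the 41 genes and -0.07 over 42 without Control 4. With all mice, that of all 17138 genes was 0.003, and the 41 values ran from -0.68 for Chaf1a to 0.31 for Pola2. An estimate below 0 was found for 31 of the 41 genes with all mice, against 49.4% of all genes. Such estimates numbered 28 of 42 without Control 4 and 26 of 42 without TTI-101 2, where Fen1 entered the test. The share of all genes below 0 is not given here for either of these fits, so their counts were not set against a background. The replication and G1/S genes belong to 1 program, so the 31 estimates are not separate observations, and the count carries no test. Approximate 95% intervals, from the estimate and its standard error, lay within a 2-fold decrease and a 2-fold increase for 35 of the 41 genes, as they did for 65.1% of all genes tested. The 6 genes whose intervals reached further were Orc1, Cdc6, Pola1, Chaf1a and Uhrf1 on the lower side and Gins2 on the upper side. All 4 TTI-101 mice lay below all 4 Control mice for 1 gene, Tyms, against 1.43% of all genes. No gene had all 4 TTI-101 mice above the Control mice, against 1.53%.

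**Figure D1:**
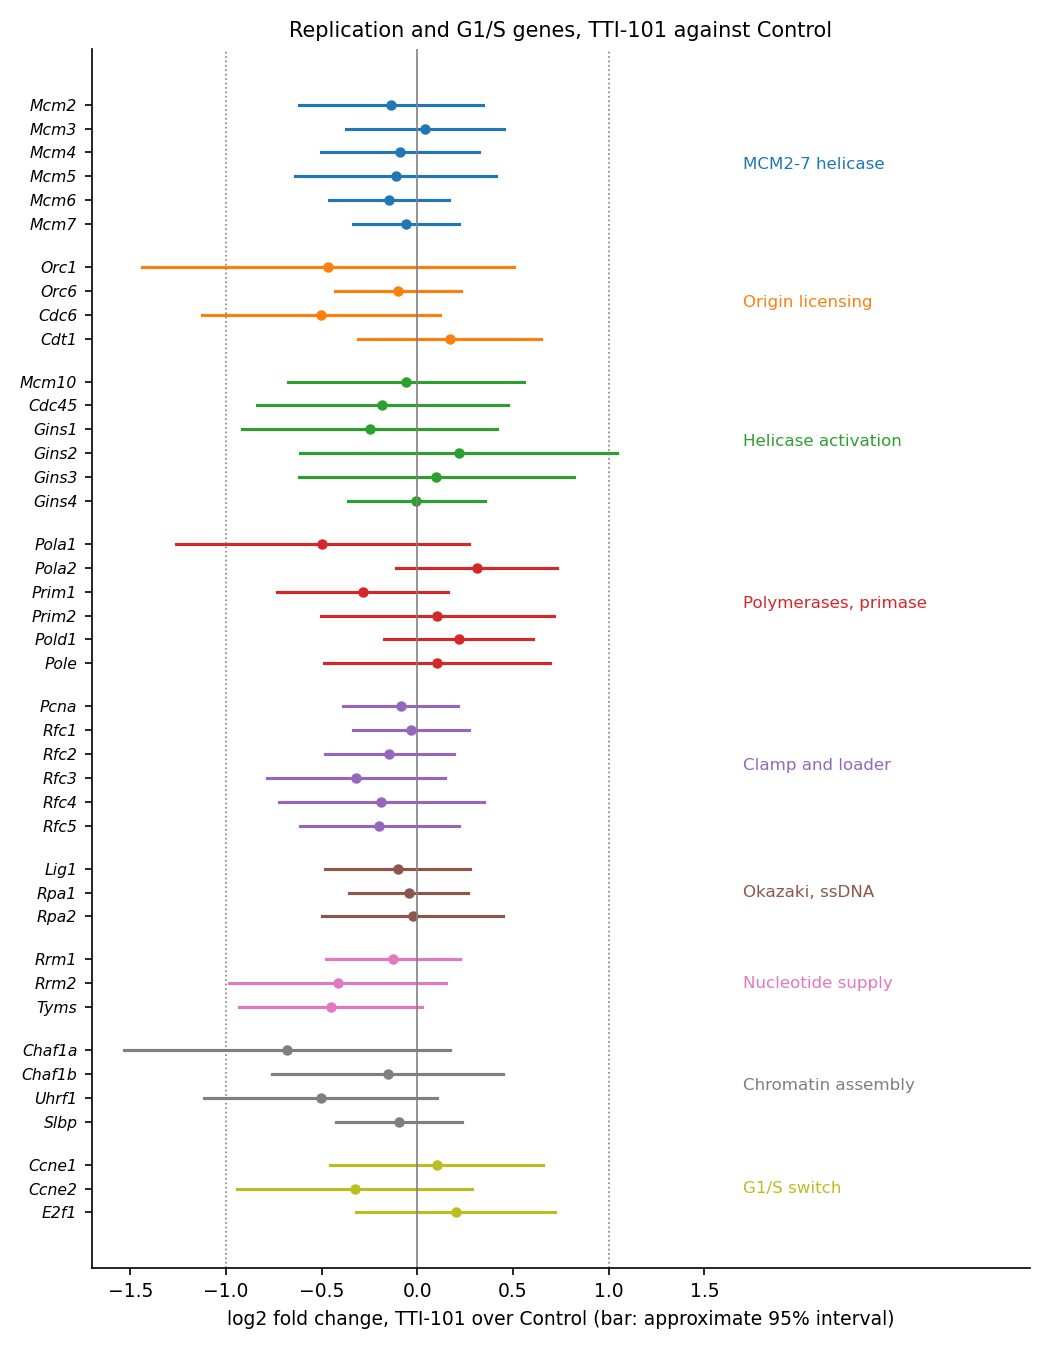
Log2 fold change of TTI-101 over Control for each of the 41 genes tested, by role, with points for the edgeR estimate and bars for the approximate 95% interval. Every bar crosses 0, and the dotted lines mark a 2-fold decrease and a 2-fold increase, inside which 35 of the 41 bars lie.

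Precision followed abundance. The 21 genes with a mean of at least 10 CPM over the 8 mice had a median standard error of 0.17 on the log2 scale and estimates from -0.20 to 0.31. The 20 scarcer genes had a median standard error of 0.28, and their median on the log2 scale was -0.27. In 9 of the 42 genes, Fen1 included, no library had as many as 100 counts. The median biological coefficient of variation was 23.7% for the 41 genes and 24.9% for all genes tested.

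The 6 subunits of the MCM helicase, the motor that opens DNA ahead of the fork, differed by less than their spread. Mcm2 (ENSMUSG00000002870, chromosome 6, 88883474 to 88898780, coordinates here and below on GRCm38) was at 19.7, 13.3, 19.0 and 23.0 CPM in Control mice 1 to 4 and at 16.5, 13.3, 22.2 and 16.2 CPM in TTI-101 mice 1 to 4. The groups overlapped widely, and the lowest mouse of each group had the same value. The group means (± SD, n = 4 mice each) were 18.7 ± 4.03 CPM for Control and 17.0 ± 3.73 CPM for TTI-101, a fold of 0.910 with an approximate 95% interval of 0.652 to 1.27. The log2 fold changes of Mcm3, Mcm4, Mcm5, Mcm6 and Mcm7 were 0.04, -0.09, -0.11, -0.15 and -0.06, and Mcm3 alone of the 6 had an estimate above 0. Mcm7 had the smallest standard error of all 41 genes, 0.13, and its fold was 0.960 (approximate 95% interval 0.791 to 1.16). Summed over the 6 subunits, expression was 144.2 to 181.2 CPM in Control and 128.3 to 176.6 CPM in TTI-101 mice. TTI-101 2 was the lowest of the 8 mice, or level with the lowest, for all of the subunits except Mcm7.

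Of the licensing genes, Cdt1, Cdc6 and Orc1 had lower mean CPM than each of these subunits, while Orc6 did not. Cdt1 (ENSMUSG00000006585, chromosome 8, 122568015 to 122573554), which brings the helicase to origins, was at 9.98, 9.68, 8.60 and 13.8 CPM in Control and 10.5, 9.61, 14.2 and 12.8 CPM in TTI-101 mice. Control 4, TTI-101 3 and TTI-101 4 were the highest, so that both groups had high mice. The fold was 1.12 (approximate 95% interval 0.808 to 1.56). Its partner Cdc6 (ENSMUSG00000017499, chromosome 11, 98907801 to 98923940) was at 2.79, 2.27, 3.16 and 4.09 CPM in Control and 2.41, 2.22, 1.95 and 2.07 CPM in TTI-101 mice. Only Control 2 kept the groups from separating, being lower than TTI-101 1. The log2 fold change of Cdc6 was -0.51 (edgeR unadjusted p = 0.101, adjusted p = 0.657, standard error 0.28), and -0.33 without Control 4. Orc1 (ENSMUSG00000028587, chromosome 4, 108579423 to 108614833), the largest subunit of the origin recognition complex, was the scarcest gene tested, at 1.14, 0.657, 0.721 and 1.79 CPM in Control and 0.528, 0.961, 0.667 and 0.973 CPM in TTI-101 mice. Its high mouse was Control 4, at 2.14 times the mean of the other Control mice. The log2 fold change was -0.47 (with a standard error of 0.44) and -0.12 without Control 4. Orc6, a small subunit of the same complex, had a fold of 0.932 (approximate 95% interval 0.742 to 1.17).

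The factors that switch the loaded helicase on also overlapped. Cdc45 (ENSMUSG00000000028, chromosome 16, 18780447 to 18811987), which joins the helicase with GINS, was at 3.30, 2.81, 3.50 and 6.01 CPM in Control and 3.28, 2.88, 3.67 and 3.89 CPM in TTI-101 mice. Control 4 lay above the other mice, and the remaining Control and TTI-101 mice covered overlapping ranges. With all mice its estimate on the log2 scale was -0.18, with a standard error of 0.30, and 0.11 without Control 4. The 4 GINS subunits had estimates of both signs, with log2 fold changes of -0.25 for Gins1, 0.22 for Gins2, 0.10 for Gins3 and -0.01 for Gins4. None of them passed the test, and the sign for Gins4 turned to above 0 under 5 of the 6 other settings on all 8 mice. Mcm10, which helps the active helicase leave the origin, had a log2 fold change of -0.06 (with a standard error of 0.28).

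Among the polymerases, the 2 subunits of DNA polymerase alpha differed in sign. Pola1 (ENSMUSG00000006678, chromosome X, 93304767 to 93632155), its catalytic subunit, was at 9.28, 6.16, 4.16 and 12.9 CPM in Control and 6.22, 3.96, 5.78 and 7.05 CPM in TTI-101 mice. Control mice 3 and 4 were far apart, and Control 3 was among the lowest of the 8. Its log2 fold change was -0.50 (edgeR unadjusted p = 0.179, standard error 0.34) and -0.17 without Control 4. Pola2 (ENSMUSG00000024833, chromosome 19, 5940543 to 5964206), the accessory subunit, was at 16.6, 17.3, 18.8 and 11.4 CPM in Control and 19.1, 18.0, 23.6 and 18.8 CPM in TTI-101 mice. Here Control 4 was the lowest mouse and TTI-101 3 the highest. Its log2 fold change was 0.31 (edgeR unadjusted p = 0.133, standard error 0.19) and 0.19 without Control 4. The difference between both subunits was not tested.

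Primase lays the primer that polymerase alpha extends. Its catalytic subunit gene Prim1 (ENSMUSG00000025395, chromosome 10, 128015168 to 128030037) was at 6.97, 8.25, 8.15 and 10.4 CPM in Control and 6.93, 7.27, 7.45 and 6.02 CPM in TTI-101 mice. Control 1 lay among the TTI-101 mice and the other 3 Control mice above them. The fold was 0.820 (approximate 95% interval 0.601 to 1.12), and the log2 fold change was -0.29 with all mice and -0.16 without Control 4. Prim2, the large subunit, had a log2 fold change of 0.10. Pold1 (ENSMUSG00000038644, chromosome 7, 44532746 to 44548849), the catalytic subunit of the lagging-strand polymerase delta, was at 33.5, 33.1, 34.0 and 22.1 CPM in Control and 31.3, 36.6, 41.9 and 32.7 CPM in TTI-101 mice. Control 4 was well below the other 7 mice, which formed 1 range. With all mice the log2 fold change of Pold1 was 0.21 (with a standard error of 0.17), and without Control 4 it was 0.10. Pole, the catalytic subunit of the leading-strand polymerase epsilon, had a log2 fold change of 0.10.

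**Figure D2:**
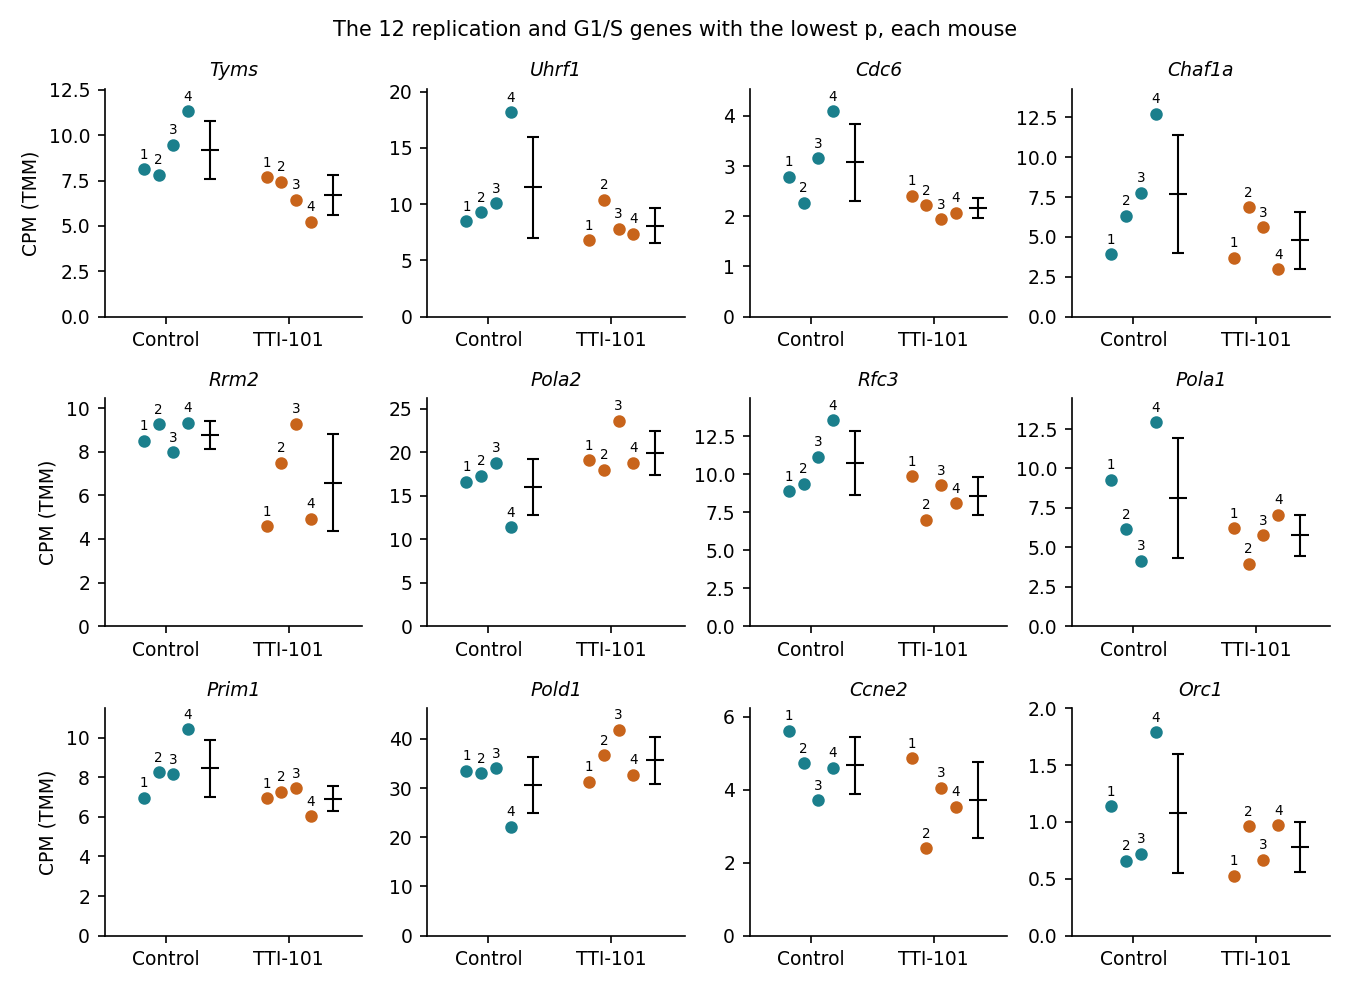
CPM after TMM in each mouse for the 12 genes with the lowest unadjusted p, with the mouse number above each point and the group mean with 1 SD beside it. Tyms is the only panel in which the groups do not overlap, and Control 4 is the highest point for 9 of the 12 genes and the lowest for Pola2 and Pold1.

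All 6 estimates for the clamp and its loader lay below 0, and none passed the test. Pcna (ENSMUSG00000027342, chromosome 2, 132249162 to 132253314), the ring that tethers polymerases to DNA and a common immunostain of cycling cells, was at 78.9, 66.8, 65.6 and 72.6 CPM in Control and 73.9, 57.5, 74.1 and 61.6 CPM in TTI-101 mice. TTI-101 mice 1 and 3 lay inside the Control range and mice 2 and 4 below it. The group means (± SD, n = 4 mice each) were 71.0 ± 6.12 CPM for Control and 66.8 ± 8.51 CPM for TTI-101, a fold of 0.941 (approximate 95% interval 0.764 to 1.16). Rfc3 (ENSMUSG00000033970, chromosome 5, 151642756 to 151651242), a small subunit of the loader that opens the ring, was at 8.88, 9.38, 11.2 and 13.6 CPM in Control and 9.87, 7.03, 9.28 and 8.09 CPM in TTI-101 mice. TTI-101 1 lay above Control mice 1 and 2, and Control 4 was the highest. Rfc3 had a log2 fold change of -0.32 (edgeR unadjusted p = 0.154, standard error 0.21) and -0.18 without Control 4. The log2 fold changes of the other loader subunits were -0.03 for Rfc1, -0.15 for Rfc2, -0.19 for Rfc4 and -0.20 for Rfc5. Summed over the clamp and loader, expression was 189.6 to 210.3 CPM in Control and 179.7 to 190.9 CPM in TTI-101 mice, so that the ranges met at TTI-101 1 and Control 2.

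The 3 tested genes for finishing the lagging strand and covering single strands had estimates close to 0, from -0.10 to -0.02 on the log2 scale. Lig1, the ligase that seals Okazaki fragments, had a log2 fold change of -0.10, and Rpa1 and Rpa2, which coat single-stranded DNA, had -0.05 and -0.02. Fen1, the nuclease that trims Okazaki flaps, had 2 to 29 counts per library and was not tested. Its gene overlaps Tmem258 on the opposite strand, and reads of both cannot be told apart if strand was not used in counting.

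Genes of nucleotide supply had the lowest median log2 fold change of the roles, -0.42 over 3 genes. Tyms (ENSMUSG00000025747, chromosome 5, 30058202 to 30073617), thymidylate synthase, was at 8.14, 7.83, 9.49 and 11.3 CPM in Control and 7.69, 7.45, 6.45 and 5.23 CPM in TTI-101 mice. The groups did not overlap, but the lowest Control mouse and the highest TTI-101 mouse were close to each other. The group means (± SD, n = 4 mice each) were 9.20 ± 1.59 CPM for Control and 6.70 ± 1.12 CPM for TTI-101. In the edgeR fit across all genes the fold was 0.731 (approximate 95% interval 0.524 to 1.02, unadjusted p = 0.0612, adjusted p = 0.657), and without Control 4 the log2 fold change was -0.33 in place of -0.45.

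Ribonucleotide reductase makes the deoxynucleotides themselves. Rrm2 (ENSMUSG00000020649, chromosome 12, 24708241 to 24714146), its cycle-regulated subunit, was at 8.51, 9.27, 7.99 and 9.34 CPM in Control and 4.60, 7.51, 9.28 and 4.93 CPM in TTI-101 mice. The Control mice were close together, TTI-101 mice 1 and 4 were far below them, and TTI-101 3 was level with the highest Control mice. The fold was 0.749 (approximate 95% interval 0.506 to 1.11, edgeR unadjusted p = 0.133). Without TTI-101 3 the log2 fold change was -0.63, against -0.42 with all mice. Rrm1, the large and steadier subunit, had a log2 fold change of -0.13 (with a standard error of 0.16).

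The 4 genes of chromatin assembly behind the fork all had estimates below 0. Chaf1a (ENSMUSG00000002835, chromosome 17, 56040439 to 56072289), a subunit of the histone chaperone CAF-1, was at 3.92, 6.34, 7.77 and 12.7 CPM in Control and 3.69, 6.84, 5.62 and 2.98 CPM in TTI-101 mice. Control 4 was the highest and Control 1 was among the lowest, so the groups overlapped. The log2 fold change of -0.68 (edgeR unadjusted p = 0.106, standard error 0.39) was the lowest of the 41 genes, and it was -0.32 without Control 4 and -0.90 without Control 1. Uhrf1 (ENSMUSG00000001228, chromosome 17, 56303321 to 56323486), which guides the maintenance DNA methyltransferase to new DNA, was at 8.51, 9.27, 10.1 and 18.2 CPM in Control and 6.82, 10.4, 7.84 and 7.36 CPM in TTI-101 mice. Control 4 was far above the other 7 mice, and TTI-101 2 lay above the remaining Control mice. On the log2 scale the fold change was -0.51 (edgeR unadjusted p = 0.0951, standard error 0.28) and -0.19 without Control 4. Chaf1b, a further CAF-1 subunit, had a log2 fold change of -0.15, and Slbp, which binds histone mRNA, had -0.10.

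The switch into S phase itself showed no shared direction. Ccne1 (ENSMUSG00000002068, chromosome 7, 38097984 to 38107534), a cyclin E, was at 2.53, 2.75, 2.55 and 2.30 CPM in Control and 3.13, 2.64, 2.78 and 2.31 CPM in TTI-101 mice. All 8 mice lay in a narrow range. The fold was 1.07 (approximate 95% interval 0.729 to 1.58). Ccne2 (ENSMUSG00000028212, chromosome 4, 11191351 to 11204779), the other cyclin E, was at 5.61, 4.72, 3.72 and 4.61 CPM in Control and 4.86, 2.40, 4.06 and 3.53 CPM in TTI-101 mice. Control 1 was the highest and TTI-101 2 the lowest, with the other mice between them. Its fold was 0.798 (approximate 95% interval 0.521 to 1.22). E2f1 (ENSMUSG00000027490, chromosome 2, 154559407 to 154569892), the activating E2F of the switch, was at 10.8, 8.07, 12.3 and 9.21 CPM in Control and 10.4, 9.67, 16.5 and 9.85 CPM in TTI-101 mice. TTI-101 3 was the highest of the 8 mice, and the other 3 TTI-101 mice lay inside the Control range. The log2 fold change was 0.20 (with a standard error of 0.23) and -0.02 without TTI-101 3.

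**Figure D3:**
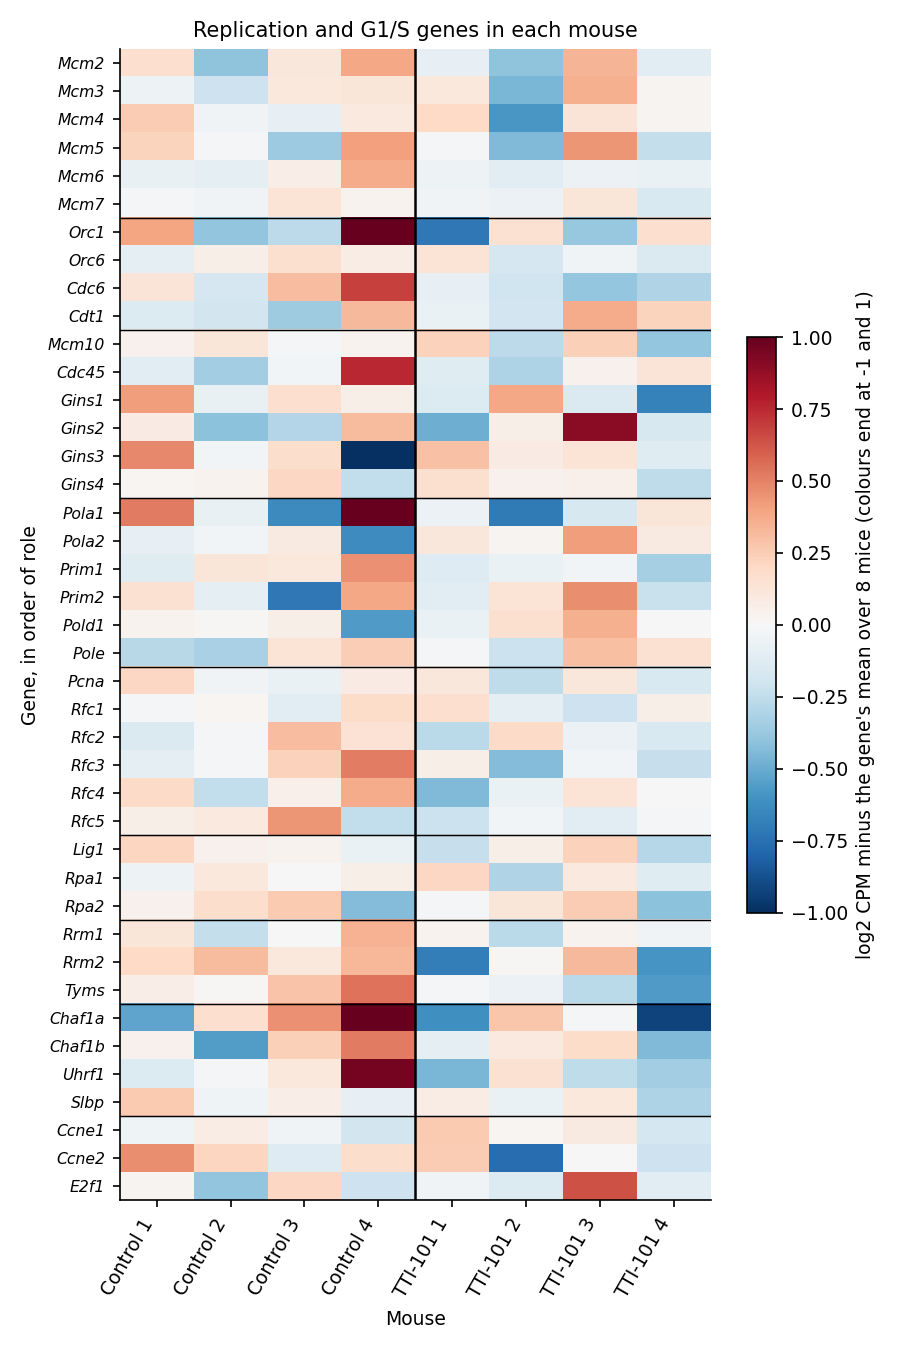
Log2 CPM of each tested gene in each mouse minus the mean of that gene over the 8 mice, with genes in order of role and mice in columns. Control 4 holds the highest value for 16 of the 41 genes and the lowest for 6, and no column is of 1 colour throughout.

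Which mice were high or low differed from gene to gene. Control 4 was the highest of the 8 mice for 16 of the 41 genes, 39% against 24.8% of all genes tested, and the lowest for 6, 14.6% against 28.7%. TTI-101 3 was the highest for 11 genes (26.8% against 17.4% of all genes). TTI-101 2 was the lowest for 12 genes (29.3% against 11.2%) and TTI-101 4 for 9 (22% against 14.3%), and neither was the highest for any.

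Summed over the 42 genes, expression was 716, 675, 721 and 762 CPM in Control mice 1 to 4 and 697, 636, 750 and 635 CPM in TTI-101 mice 1 to 4. TTI-101 3 lay above 3 of the Control mice, and TTI-101 mice 2 and 4 lay below all of them. The means were 718 ± 35.8 CPM (SD, n = 4) and 679 ± 55.1 CPM (SD, n = 4). As a share of all counts with no TMM scaling, the genes held 707 ± 16.8 CPM in Control and 687 ± 53.7 CPM in TTI-101 lungs (mean ± SD, n = 4 mice each), a ratio of 0.972. With mitochondrial genes and the 10 most abundant genes taken out of the total, the ratio was 0.935. The groups overlapped both ways, at 686.2 to 726.1 and 636.1 to 750.2 CPM of all counts and at 769.4 to 851.1 and 707.7 to 816 CPM of the reduced total.

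**Figure D4:**
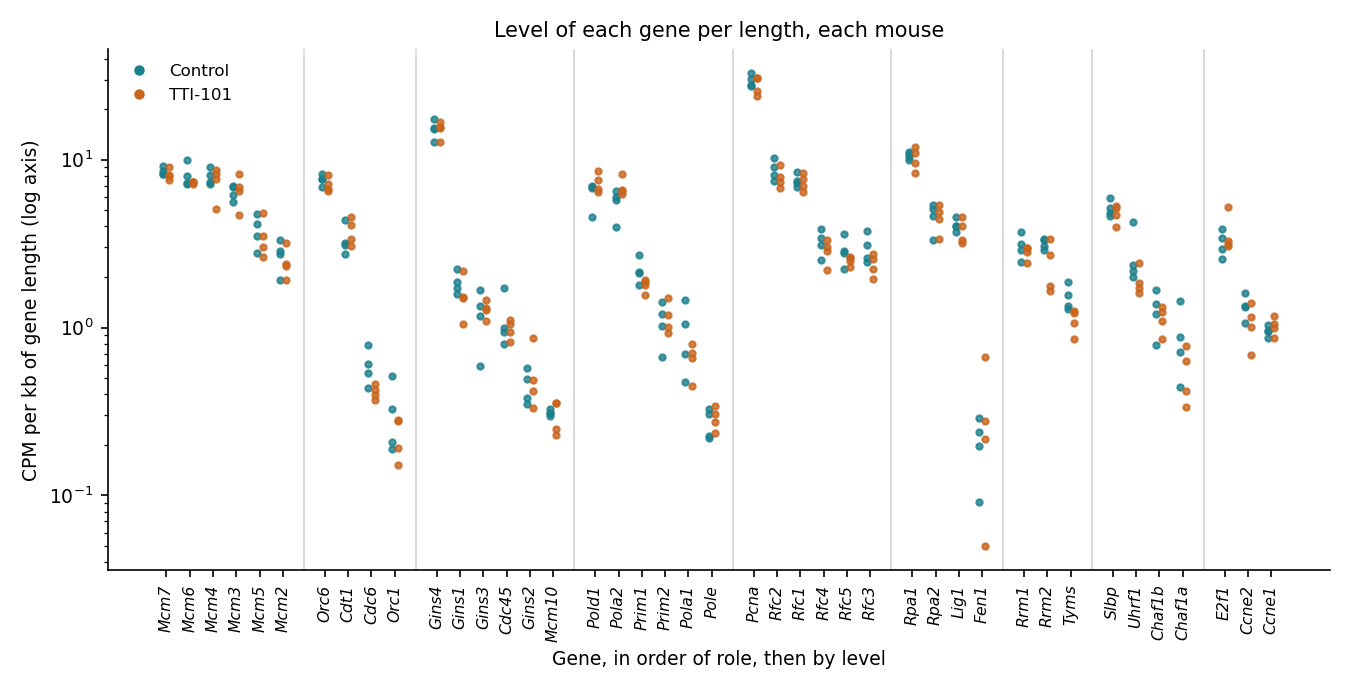
CPM per kilobase of deposited gene length in each mouse on a log axis, with genes grouped by role and ordered by level within it. Pcna is at the top at 24 to 32.9 CPM per kilobase, Orc1, Pole, Mcm10 and Fen1 are at the bottom, and the colours of both groups overlap in nearly every column.

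Levels of the genes relative to each other were compared as CPM per kilobase of the gene length deposited with the counts. How that length relates to the transcripts expressed in lung is not given in the sources used here. The order between genes therefore depends on the deposited lengths. Averaged over the 8 mice, Pcna was highest at 28.7, followed by Gins4 at 15.2, Rpa1 at 10.4, Mcm7 at 8.37 and Rfc2 at 8.28 CPM per kilobase. Pcna, at 24 to 32.9, did not overlap Gins4, at 12.7 to 17.4, and Gins4 did not overlap Rpa1, at 8.36 to 11.9. The ranges of Rpa1, Mcm7 and Rfc2 overlapped each other. By this measure subunits of 1 complex were not level, with Mcm2 at 2.57 and Mcm5 at 3.65 CPM per kilobase against 7.71 for Mcm6. The deposited lengths of these 3 genes were 6956, 3993 and 4666 bases. At the low end were Fen1 at 0.253, Orc1 at 0.267, Pole at 0.279 and Mcm10 at 0.303 CPM per kilobase. The level of Fen1 may be misstated, since it overlaps Tmem258. The loader and single-strand proteins also serve DNA repair in cells that do not divide.

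The 13 genes with an E2F-type word in a promoter window and the 20 tested genes whose windows lacked one had the same median log2 fold change, -0.11. Their ranges were -0.50 to 0.21 and -0.68 to 0.31. The 20 include E2f1, whose window lay inside the gene, so they may hold genes with a word outside the window.

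Further genes of the same pathway, 40 of replication and 30 of the G1/S switch, were examined in the same way. Of these 70, 4 were lower and 2 higher at an unadjusted p under 0.05 in edgeR, and 0 passed after adjustment over all genes. Of all genes tested, 3.58% were lower and 3.02% higher by that rule. All 4 TTI-101 mice lay below all 4 Control mice for 5 of the 70, against 1.43% of all genes. They lay above them for 1, against 1.53%. The median log2 fold change was -0.12 over the 40 replication genes and -0.01 over the 30 switch genes. By the lowest p in each direction over these genes and the G2 and mitosis genes below, Ccnd1, Nusap1 and Mki67 came first among the lower and Pole2, Cdkn2b and Cdk6 among the higher, and Nasp, E2f7 and Cdkn2a are named because they complete the counts, which was decided after their values were seen.

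Ccnd1 (ENSMUSG00000070348, chromosome 7, 144929931 to 144939925) encodes cyclin D1, which with its kinases releases E2F from the retinoblastoma protein and is known as a target of both Ras and STAT3 signaling. Its expression was 202, 209, 229 and 384 CPM in Control and 152, 151, 146 and 142 CPM in TTI-101 mice. All TTI-101 mice lay close together and below every Control mouse, and Control 4 was far above the rest. The means were 256 ± 86.3 CPM (SD, n = 4) and 148 ± 4.48 CPM (SD, n = 4), a log2 fold change of -0.79 (edgeR unadjusted p = 0.00321, adjusted p = 0.657, standard error 0.21). Without any 1 mouse it stayed between -0.89 and -0.52. The cyclin D1 partner kinase Cdk6 had a log2 fold change of 0.41 (edgeR unadjusted p = 0.0766, standard error 0.21).

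E2f7, an E2F that represses, had group means (± SD, n = 4 mice each) of 3.06 ± 0.477 CPM for Control and 1.48 ± 0.733 CPM for TTI-101, a log2 fold change of -1.05 (edgeR unadjusted p = 0.015). Cdkn2a, which encodes the inhibitors p16 and p19ARF, was at 1.43, 1.79, 1.66 and 5.05 CPM in Control and 1.02, 1.32, 1.33 and 0.851 CPM in TTI-101 mice, with Control 4 far above the rest. Its log2 fold change was -1.12 (edgeR unadjusted p = 0.0336) and -0.51 without Control 4. Cdkn2b, the gene beside it, encodes the inhibitor p15 and was higher in TTI-101 lungs, with a log2 fold change of 0.51 (edgeR unadjusted p = 0.0485). Among the replication genes, Nasp, a histone chaperone, had a log2 fold change of -0.35 (edgeR unadjusted p = 0.0433). Pole2, a subunit of polymerase epsilon, was at 1.91, 1.38, 1.50 and 1.79 CPM in Control and 2.71, 2.46, 2.50 and 2.43 CPM in TTI-101 mice, so that all TTI-101 mice lay above the Control mice. Its log2 fold change was 0.62 (edgeR unadjusted p = 0.0461, standard error 0.27). The count of 4 lower genes was 2 without Control 4 and 2 without TTI-101 1. The count of 2 higher genes was 1 without Control 4 and 0 without Control 2, Control 3, TTI-101 1, TTI-101 3 or TTI-101 4. Of all genes, 1.11% were lower and 1.92% higher without Control 4, and the share without the other mice is not given here.

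A list of 20 genes of the later cycle phases, G2 and mitosis, had larger estimates in the same libraries. Of the 20, 11 were lower in TTI-101 lungs at an unadjusted p under 0.05, against 3.58% of all genes tested, and all had estimates below 0, against 49.4%, with a median log2 fold change of -0.69, while 0 passed after adjustment in edgeR. Mki67, the gene of the Ki-67 antigen, was at 17.5, 26.1, 24.3 and 58.5 CPM in Control and 12.7, 18.9, 13.6 and 14.1 CPM in TTI-101 mice. Control 4 was far above the rest, and Control 1 was below TTI-101 2. The log2 fold change of Mki67 was -1.09 (edgeR unadjusted p = 0.00859, standard error 0.34) and -0.60 without Control 4. Nusap1, a spindle protein gene, had group means (± SD, n = 4 mice each) of 7.32 ± 2.48 CPM for Control and 3.89 ± 0.562 CPM for TTI-101, with no overlap and a log2 fold change of -0.91, or -0.64 without Control 4. Without Control 4, 5 of the 20 were lower by that rule, against 1.11% of all genes tested without this mouse, and the median was -0.40. The count was 7 without Control 2 and 6 without TTI-101 1, 3 or 4. The 20 genes also belong to 1 program, so the 11 are not separate observations, and the count carries no test. The list was chosen with earlier results of these data known.

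Summed over the 20 genes, expression was 142, 183, 141 and 285 CPM in Control mice and 97.1, 153, 115 and 106 CPM in TTI-101 mice. Divided by the sum of the 42 replication and G1/S genes in the same mouse, this gave 0.199, 0.271, 0.196 and 0.374 in Control and 0.139, 0.240, 0.153 and 0.166 in TTI-101 mice. TTI-101 2 lay inside the Control range and the other 3 TTI-101 mice below it. The means of the ratio were 0.26 ± 0.0835 (SD, n = 4) and 0.175 ± 0.0451 (SD, n = 4). The difference between both gene groups was not tested.

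**Figure D5:**
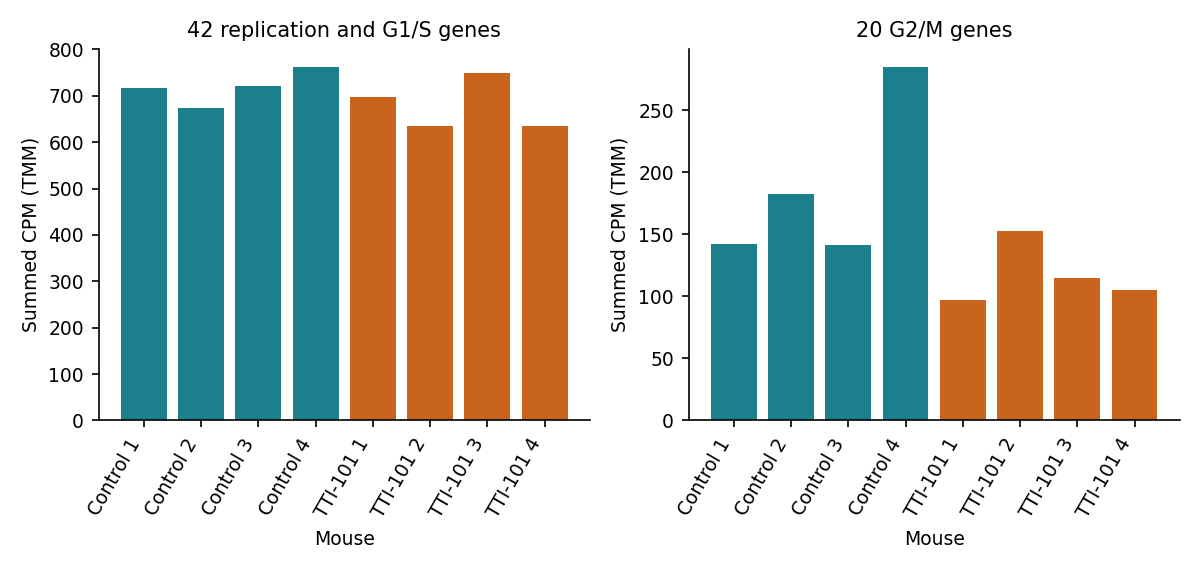
Summed CPM after TMM of the 42 replication and G1/S genes (left) and of 20 G2/M genes (right) in each mouse. On the left the TTI-101 mice span 635 to 750 CPM against 675 to 762 CPM in Control, and on the right Control 4 stands at 285 CPM against 97.1 to 183 CPM in the other mice.

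Markers of other cell types were examined in the same libraries. Epithelial markers of lung were abundant, with Sftpc, the surfactant protein of alveolar type 2 cells, at a mean of 29900 CPM and Scgb1a1, the club cell secretory protein, at 22700 CPM in Control lungs. No marker passed after adjustment over all genes in edgeR, and at an unadjusted p under 0.05, 3.02% of all genes tested were higher and 3.58% lower. At that unadjusted threshold, 7 of 7 B cell markers were higher in TTI-101 lungs (summed 109.6 to 301.6 CPM in Control and 258.2 to 540.3 CPM in TTI-101 mice), as were 4 of 5 tested red cell markers (57.98 to 263.8 and 205.3 to 1586 CPM) and 3 of 3 adipocyte markers (3.966 to 23.55 and 17.88 to 60.54 CPM). Lower by the same rule were 3 of 6 ciliated cell markers (227.9 to 775.5 and 184.7 to 508.5 CPM) and 1 of 3 club cell markers (14660 to 36960 and 12380 to 23010 CPM). Of 4 endothelial markers 0 passed, and their sum in Control 4 was 660.8 CPM against at least 1670 CPM in every other mouse. Of 7 T cell markers 1 was higher, of 3 tested germinal centre markers 1 was lower and 1 higher, and 0 passed among those of alveolar type 1 and type 2 cells, alveolar macrophages, neutrophils and cardiomyocytes. Rag1, Rag2, Dntt and Ptcra, which mark lymphoid precursors, had too few counts to test, with at most 17 in a library. Markers of 1 cell type are not separate observations either, and their counts carry no test. The part of these cell types in the levels of the replication genes was not tested.

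Some of the counts may hold reads of neighbours, or lack reads that fell in both genes, depending on how overlaps were counted. Besides Fen1, 10 of the 42 genes overlap a protein-coding gene on the opposite strand, namely Mcm7, Orc6, Cdc45, Gins2, Rfc2, Rfc4, Rfc5, Lig1, Chaf1a and Ccne2. The library kit marks strand, but whether counting used it is not given in the sources used here. The largest such neighbour by counts was Eif4a2, beside Rfc4, with 77654 counts over the 8 libraries.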

How the data were processed

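Lung RNA was poly(A) selected, prepared with a stranded kit and sequenced as paired ends by the authors' provider. The authors deposited raw counts per Ensembl gene, 1 column per mouse, with no normalization, and their processing notes name STAR, DESeq2 and mm10 without versions. Of the 42 genes, 42 have an identifier and 41 the same start and end in GENCODE M21. Genes were matched by symbol, and groups were taken from the sample titles.

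Groups were compared on the counts with edgeR 4.0.16 in R 4.3.3 (filterByExpr, minimum count 10, TMM, robust quasi-likelihood F-test, Benjamini-Hochberg over the 17138 genes tested). Approximate 95% intervals were the estimate plus or minus its standard error times the t quantile of the fit. limma 3.58.1 and DESeq2 1.42.0, other scalings, no filter, a replicate block and each mouse left out were alternatives. The genes and lists were chosen with earlier results of these data known. Every gene is named. Values of each mouse are given for 8 preset genes and the 12 with the lowest p, and 3 further pathway genes in each direction are named by lowest p. No 2 libraries of the same group agreed within sampling noise. The edgeR p-values set the difference between groups against the spread between these mice, with the spread of each gene moderated across all genes. Total counts of 16075855 to 26873509 per library set the precision, and 9 of the 42 genes stayed below 100 counts in every library.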

Additional observations from a re-analysis of the deposited data

Results flagged for a closer look

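For each gene and library measure, Dixon's test at 95% took the outermost mouse of a group of 4 and divided its distance to the next mouse by the range of the group. The critical value was exceeded in 4 of 88 groups, where chance gives 4.4. For Pold1, Control 4 was at 22.1 CPM with the nearest Control mouse at 33.1 CPM, a gap of 0.92 of the range. For Uhrf1, Control 4 was at 18.2 CPM with the nearest at 10.1 CPM, a gap of 0.836. For E2f1, TTI-101 3 was at 16.5 CPM with the nearest TTI-101 mouse at 10.4 CPM, a gap of 0.898. The total counts of Control 1 had a gap of 0.83. Control 4 was thus the low mouse for 1 gene and the high mouse for another.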

How the results depend on the processing

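With a replicate block, library totals, DESeq2's size factors, no filter, limma-voom or DESeq2's Wald test, there were 0 of the 42 genes at an unadjusted p under 0.05 in either direction. Of these settings, the share of all genes is given here only for DESeq2's Wald test, at 2.69% lower and 2.63% higher. The median log2 fold change of the tested genes lay between -0.11 and -0.07 under these settings, and between -0.153 and -0.052 with a mouse left out. Estimates below 0 numbered 28 to 31 in the former and 26 to 34 in the latter case, of 41 or 42 genes tested. The median of all genes tested was at most 0.041 under the settings with all 8 mice. Leaving out each mouse gave 0 to 1 lower genes, 1 to 4 genes whose groups did not overlap, 2 to 5 lower and 0 to 3 higher genes among the 70 further pathway genes, 5 to 12 lower genes of 20 for G2/M, and a ratio of the shares of 0.942 to 0.996. Without mitochondrial and the 10 most abundant genes, that ratio was 0.935. Among the 70 genes, limma-voom gave 1 higher gene, and the cause was not tested. Groups with a mouse left out separate more easily than complete ones. The counts of non-overlap therefore cannot be set against the 1.43% and 1.53% of all genes from all 8 mice. At an unadjusted p under 0.05 in edgeR, 1.11% of all genes were lower and 1.92% higher without Control 4. For the other left-out mice the share of all genes is not given here.

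The replicate numbers of the labels were not taken as pairs: deviations from the group means correlated at 0.393, 0.082, 0.158 and 0.071 for same-numbered mice, and TTI-101 2 and 4 correlated more with a Control mouse of another number. Total counts went partly with the number. They were largest in Control 1 and TTI-101 1, at 26873509 and 25920509, followed by Control 3 and TTI-101 3, at 18220467 and 17982612. Whether same-numbered mice shared a step of handling was not tested. With the replicate block, 2 of the 70 genes were lower and 0 higher, and 10 of the 20 G2/M genes were lower.

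For single genes, 7 of 300 values under settings with all 8 mice turned sign. Gins4 was at 0.002 with DESeq2's size factors, 0.029 with library totals, 0.006 with no filter, 0.006 with DESeq2 and 0.001 with limma-voom, against -0.005. With library totals Rfc1 was at 0.011 and Rpa2 at 0.004. With a mouse left out, 24 of 400 values turned sign, and the log2 fold changes ran from -0.084 to 0.183 for Mcm3, -0.173 to 0.066 for Mcm4, -0.307 to 0.016 for Mcm5, -0.155 to 0.045 for Mcm10, -0.305 to 0.109 for Cdc45, -0.138 to 0.391 for Gins2, -0.112 to 0.308 for Gins3, -0.07 to 0.074 for Gins4, -0.069 to 0.271 for Prim2, -0.097 to 0.039 for Rfc1, -0.129 to 0.05 for Rpa1, -0.142 to 0.093 for Rpa2, -0.319 to 0.015 for Chaf1b and -0.019 to 0.306 for E2f1.

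With 4 mice a group, the standard errors of 0.126 to 0.439 limit what could be seen: an interval that excludes a 2-fold decrease was reached for 36 of the 41 genes and one that excludes a 2-fold increase for 40.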
